A study of Mus musculus with 6 samples.

Results

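The genes described here are 10 genes of the heat shock and cold shock responses in mouse liver. They are the transcription factor gene Hsf1, 7 genes of cytosolic chaperones and cochaperones (Hspa1a, Hspa1b, Hspa8, Hsph1, Hsp90aa1, Dnajb1 and Dnaja1) and the cold-inducible RNA-binding protein genes Cirbp and Rbm3. They were chosen by name for their function, with earlier results of these data known. All 10 are among the 32212 rows of the deposited count table and among the 13867 genes that passed the filter on low counts. Poly(A)-selected liver RNA was sequenced from 3 WT and 3 CgA-KO mice, 1 library per liver, and the question was how the livers of old mice without chromogranin A differ from those of old mice with it. Chromogranin A (CgA) is a prohormone of neuroendocrine cells, encoded by Chga, and its cleavage gives the peptides catestatin and pancreastatin. All 6 mice were males of 2 yr on a C57BL/6 background that received normal chow under a daily dark/light cycle. CgA-KO mice lack the prohormone in the whole body, so no group isolates its loss in the liver. The labels give neither the hour at which livers were taken nor body or housing temperature.

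Heat shock factor 1, the product of Hsf1, is held inactive by chaperones and is released when unfolded proteins occupy them. It then binds heat shock elements, inverted repeats of GAA, and raises transcription of chaperone genes. HSP70 proteins fold their clients in cycles of ATP hydrolysis, in which J-domain proteins deliver the client and HSP110 exchanges the nucleotide, and HSP90 receives a subset of the clients. CIRBP and RBM3 are short glycine-rich RNA-binding proteins whose mRNAs rise under mild cooling, fall under warming and follow the daily rhythm of body temperature.

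Total counts ranged from 10558616 in WT replicate 1, the shallowest library, to 31087453 in WT replicate 2. Levels are CPM, a library's counts scaled to a common total with TMM factors (trimmed mean of M values), and 3 counts, taken as the floor, correspond to 0.0951 to 0.269 CPM. Chga had 0 counts in 6 of 6 libraries, which allows no more than that floor, for counting error only, so it does not check the genotype labels. Of the hepatocyte markers, 0 of 10 passed edgeR's quasi-likelihood test at an adjusted p under 0.05 and 1 had an unadjusted p under it, and their summed level overlapped between the genotypes. Markers of immune cells did differ. Higher levels in CgA-KO livers were called for 9 of 10 Kupffer cell and macrophage markers, whose summed level was 122 to 320 CPM in WT and 1293 to 1921 CPM in CgA-KO livers. The same call was made for 5 of 8 tested T and NK cell markers (summed level 3.70 to 14.3 CPM against 47.4 to 107 CPM) and for 3 of 4 tested neutrophil markers (2.54 to 10.04 CPM against 29.1 to 229 CPM). Of the stellate cell and the proliferation markers tested, 2 of 7 and 2 of 5 were called higher, and 0 of 6 B and plasma cell and 0 of 5 bile duct markers were called. Of the 7 sinusoidal endothelial markers, Lyve1 was called higher and Clec4g lower. Of the 4 red blood cell markers tested, Hba-a2 was called higher and Alas2 lower, and their summed level was 118 to 291 CPM in WT and 333 to 476 CPM in CgA-KO livers. None of the Kupffer cell or of the T and NK cell markers tested was at 0 in all WT libraries. The part of the cell makeup in the differences given below was not tested. In whole liver, fewer cells of a type and less RNA per cell cannot be told apart.

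The promoter letters are shown first because the members are grouped by how their transcription is known to be switched on. RefSeq promoter windows of GRCm38.p6, from 250 bases before to 50 bases after an annotated start, were matched by symbol for 6 of the 10 genes, namely Hspa1a, Hspa1b, Hsph1, Dnajb1, Dnaja1 and Cirbp. They were searched on both strands for a heat shock element of 2 units (GAANNTTC or TTCNNGAA), for one of 3 units (GAANNTTCNNGAA or TTCNNGAANNTTC), which contains the former, and for the mild cold response element (TCCCCGCC, or GGCGGGGA on the other strand). In the stretches below, written 5′ to 3′ on the gene's strand, capitals mark the motif.
Hsph1, chr5:149636351-149636380, minus strand: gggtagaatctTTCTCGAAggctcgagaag
Hsph1, chr5:149636287-149636310, minus strand: atgctgcagaTTCTGGAAAGTTCt
Hspa1a, chr17:34972222-34972281, minus strand: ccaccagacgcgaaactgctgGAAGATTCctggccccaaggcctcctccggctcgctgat
Dnaja1, chr4:40722333-40722362, plus strand: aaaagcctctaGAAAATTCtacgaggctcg
Cirbp, chr10:80167589-80167618, plus strand: ctgTCCCCGCCtcctagtcgctagcgggcg

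Of the 6 members with a window, Hsph1 alone had an element of 3 units, shown on its second line. This motif was found in 0.603% of the 32851 windows of all genes, and in 0.662% of genes. An element of 2 units was present in Hsph1, Hspa1a, Hspa1b and Dnaja1, beside 15.1% of all windows and 17% of genes. The E-box (CACGTG) was searched in the same windows as well. Of the 6 members it was present in Hsph1 alone, at chr5:149636329-149636334, outside the stretches shown, beside 7.15% of all windows and 8.09% of genes. The mild cold response element, found in 5.38% of all windows and 6.19% of genes, holds the letters through which Cirbp is known to respond to cooling. It was present at the far end of the Cirbp window, 247 bases before the start. It was equally present in the windows of Hspa1a, Hspa1b, Dnajb1 and Dnaja1, so it did not set Cirbp apart from the heat shock genes. The windows of the neighbouring genes Hspa1a and Hspa1b differed at 4 of 300 bases, and the 60 bases shown for Hspa1a were the same in Hspa1b at chr17:34959304-34959363. By the GENCODE annotation of GRCm38, the Hspa1a and Hspa1b stretches lie upstream of the genes. The first Hsph1 stretch has 26 of its 30 bases in an annotated exon, the second Hsph1 stretch and that of Dnaja1 are exonic in full, and the Cirbp stretch is intronic in the longer annotated gene. These matches describe letters and do not show that a factor was bound.

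Among the 10 genes, levels per kb of merged exon spanned a wide range. This length merges the exons of all annotated transcripts and not of those expressed, which limits the ranking below. Hspa8 had the highest median over the 6 libraries, 202 CPM per kb, and was above the next gene in all 6. Hsp90aa1 (28.0 CPM per kb), Rbm3 (24.3), Dnaja1 (19.6) and Cirbp (13.5) came next by median CPM per kb. The order of these neighbours held in 3 of 6 libraries for Hsp90aa1 over Rbm3, in 3 for Rbm3 over Dnaja1 and in 4 for Dnaja1 over Cirbp, so their places are not separated beyond the spread. Dnajb1 (5.85 CPM per kb) was below Cirbp in 5 of 6 libraries and above Hspa1b (4.39 CPM per kb) in 6 of 6. Hsph1 (2.40 CPM per kb) and Hsf1 (2.31 CPM per kb) were ordered this way in 3 of 6 libraries. Hspa1a had the lowest median, 0.381 CPM per kb, and was below Hsf1 in all 6. Among the HSP70 transcripts of these old livers, the constitutive gene was thus far above the inducible copies in both genotypes.

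Between the genotypes, 1 of the 10 genes was called higher in CgA-KO livers (Rbm3) and 1 lower (Hsph1) by the quasi-likelihood test of edgeR, at a threshold of 0.05 for p adjusted over all 13867 genes (Benjamini-Hochberg). Over all genes tested, 12.4% were called, 8.60% higher and 3.84% lower, so the share of members called is near the background. The genotypes showed no overlap between libraries for 4 of the 10 genes (Hsph1, Dnaja1, Cirbp and Rbm3), beside 33.6% of all genes tested. The median log2 fold change of the members was -0.21, beside -0.01 for all genes, with 7 point estimates below 0 and 3 above. This balance rests on single libraries: without WT replicate 2 the members' median was 0.06, with 5 estimates above and 5 below 0, and without CgA-KO replicate 3 it was -0.46. With library size alone the median over all genes moved to 0.26 and the members' median to 0.06, still below that of all genes.

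**Figure D1:**
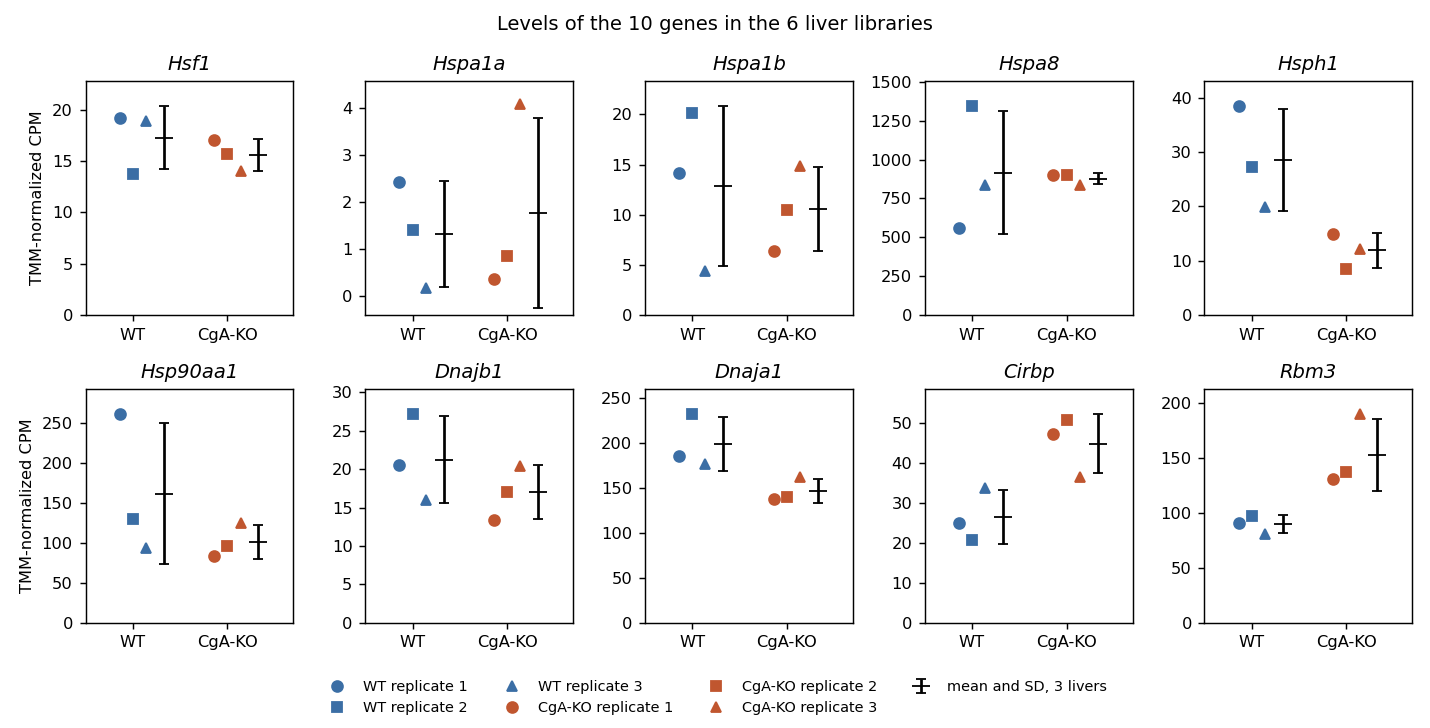
TMM-normalized CPM of each of the 10 genes (vertical axis, linear, a scale per gene) in the 3 WT and 3 CgA-KO libraries, with replicates 1, 2 and 3 as circles, squares and triangles and the mean with its SD in black. The CgA-KO points lie below all WT points for Hsph1 and Dnaja1 and above all WT points for Cirbp and Rbm3, and the groups overlap in the other 6 panels.

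Hsf1, which encodes the activator itself, lies on chromosome 15 from 76477422 to 76501913 on the plus strand (GRCm38, as for all gene positions here). In WT replicates 1 to 3 it was at 19.2, 13.7 and 18.9 CPM, and at 17.1, 15.7 and 13.98 CPM in CgA-KO replicates 1 to 3. The ranges overlapped, with the lowest and the highest value both in WT. The log2 fold change of CgA-KO over WT was -0.15 (SE 0.20, 95% interval -0.60 to 0.31; edgeR adjusted p = 0.680), an interval that leaves room for a fall to 0.659-fold or a rise to 1.24-fold of the WT level. HSF1 is regulated mainly at the protein level, which these libraries do not measure.

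The inducible HSP70 genes Hspa1a and Hspa1b, whose proteins are near absent from unstressed cells and surge on heat shock, lie side by side on the minus strand of chromosome 17, from 34969190 to 34972156 and from 34956436 to 34959238. Hspa1a was barely detected, with 27, 33 and 4 counts in the WT libraries and 8, 27 and 91 counts in the CgA-KO libraries. In CPM these were 2.42, 1.404 and 0.169 in WT and 0.371, 0.856 and 4.08 in CgA-KO livers, a range of 24.1-fold over the 6 livers, the widest of the 10 genes. CgA-KO replicate 3 was at the top and WT replicate 3 at the bottom. Between them, WT replicates 1 and 2 were both above CgA-KO replicates 1 and 2, so the genotypes overlapped through the replicate 3 livers alone. Hspa1b was more abundant, at 14.2, 20.1 and 4.36 CPM in WT and 6.41, 10.4 and 14.8 CPM in CgA-KO livers. WT replicate 3 was the lowest library for both genes, while the highest differed. For Hspa1a the estimate was 0.46 on the log2 scale (SE 0.98, 95% interval -1.75 to 2.68; edgeR adjusted p = 0.798). For Hspa1b it was -0.28 (SE 0.50, 95% interval -1.42 to 0.85; edgeR adjusted p = 0.755). Of the distinct 100-base windows of Hspa1a transcripts, 47.1% also occur in Hspa1b, and 49.9% of those of Hspa1b occur in Hspa1a, so the split of reads between them is uncertain. Summed, the pair differed by -0.20 on the log2 scale (edgeR adjusted p = 0.843). The interval of Hspa1a includes changes of more than 2-fold either way, and that of Hspa1b a fall of more than 2-fold.

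Hspa8 encodes the constitutive HSP70, HSC70, which folds new proteins, uncoats clathrin vesicles and delivers clients to chaperone-mediated autophagy. It lies on chromosome 9 from 40800984 to 40810087 on the plus strand and hosts the small nucleolar RNA genes Snord14c, Snord14d and Snord14e. The levels were 562.03, 1343 and 838 CPM in WT livers and 899, 898 and 834 CPM in CgA-KO livers. All 3 CgA-KO values fell inside the WT range, and the WT libraries spread 2.39-fold while the SD over CgA-KO libraries was 36.9 CPM. On the log2 scale CgA-KO differed from WT by -0.06 (SE 0.32, 95% interval -0.79 to 0.67; edgeR adjusted p = 0.927). A share of 28.2% of its 100-base windows also occurs in other genes, most of them in the pseudogene Gm15459, whose own row held 9 counts in all.

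Hsph1 fell in CgA-KO livers. It encodes HSP105, an HSP110 protein that exchanges the nucleotide of HSP70 and helps to dissolve aggregates, and lies on chromosome 5 from 149614287 to 149636376 on the minus strand. Its level was 38.4, 27.3 and 19.9 CPM in WT livers, from 429, 641 and 469 counts, and 15.0, 8.56 and 12.2 CPM in CgA-KO livers, from 323, 270 and 272 counts. Every CgA-KO library was below every WT library, and the mean was 28.5 ± 9.34 CPM (SD, n = 3) in WT and 11.9 ± 3.23 CPM (SD, n = 3) in CgA-KO livers. This is a log2 fold change of -1.26 (SE 0.29, 95% interval -1.92 to -0.60; edgeR adjusted p = 0.0254), or 2.39-fold more in WT, with none of its 100-base windows shared with another gene. An exact two-sided permutation test gave p = 0.1, the smallest value that 3 against 3 samples allow. The call was kept in 10 of 15 alternative settings. It was lost with library size alone (log2 fold change -1.01, adjusted p = 0.105). Leaving out WT replicate 1 (log2 fold change -0.95, adjusted p = 0.0533) or WT replicate 2 (-1.29, adjusted p = 0.0717) also ended it, as did leaving out CgA-KO replicate 2 (-1.03, adjusted p = 0.0882) or CgA-KO replicate 3 (-1.25, adjusted p = 0.0687). WT replicate 1, the shallowest library, had the highest level.

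Hsp90aa1, which encodes the stress-inducible HSP90α, lies on chromosome 12 from 110690605 to 110702728 on the minus strand. It was measured at 261, 129 and 93.4 CPM in WT livers and at 82.9, 95.4 and 124.7 CPM in CgA-KO livers. WT replicate 1 stood alone at the top, and the other 5 libraries overlapped. The log2 fold change was -0.67 (SE 0.37, 95% interval -1.50 to 0.15; edgeR adjusted p = 0.259). Without WT replicate 1 it was -0.10, so most of the difference rests on that library. Other chaperone genes did not all follow this library. Hsph1 was highest there as well, at 38.4 CPM, as was Hspb1, at 77.6 CPM against 14.3 and 15.4 CPM in the other WT livers. In contrast, Hspa1b, Dnajb1 and Bag3 were highest in WT replicate 2, and Hspa8 was lowest in WT replicate 1. Other genes share 38% of the 100-base windows of Hsp90aa1.

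The J-domain genes encode the HSP40 cochaperones that load clients onto HSP70. Dnajb1, the heat-inducible one, lies on chromosome 8 from 83608193 to 83612653 on the plus strand and was at 20.5, 27.2 and 15.9 CPM in WT and 13.4, 17.1 and 20.4 CPM in CgA-KO livers. These ranges overlapped, with a log2 fold change of -0.32 (SE 0.25, 95% interval -0.88 to 0.24; edgeR adjusted p = 0.427). Dnaja1, the more abundant and largely constitutive one, lies on chromosome 4 from 40722150 to 40737149 on the plus strand, in a locus that Smu1 and Gm6297 overlap on the other strand. It was at 186, 232 and 176 CPM in WT and at 138, 140 and 162 CPM in CgA-KO livers, without overlap. The log2 fold change of -0.43 (SE 0.20, 95% interval -0.90 to 0.03) did not pass the threshold (edgeR adjusted p = 0.196), nor did it in any of the 15 alternative settings, with adjusted p between 0.134 and 0.588.

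The cold-inducible RNA-binding protein genes lay in the other direction. Rbm3 rose in CgA-KO livers. It encodes a protein that binds mRNA and ribosomes and supports translation in the cold, and it lies on chromosome X from 8138975 to 8145880 on the minus strand, with the antisense gene Rbm3os opposite. Its level was 90.8, 97.4 and 80.7 CPM in WT and 131, 137 and 190 CPM in CgA-KO livers. All CgA-KO libraries were above all WT libraries, with means of 89.6 ± 8.39 CPM (SD, n = 3) in WT and 153 ± 32.8 CPM (SD, n = 3) in CgA-KO livers. On the log2 scale the rise was 0.77 (SE 0.21, 95% interval 0.28 to 1.25), or 1.702-fold, with an edgeR adjusted p of 0.0493, just inside the threshold. It was kept in 6 of 15 alternative settings and lost in 9, with adjusted p from 0.0139 with DESeq2 to 0.207 without WT replicate 3. Each of the 6 fits that left out 1 library lost the call, with log2 fold changes from 0.61 to 0.90. Rbm3os had 31 counts in all 6 libraries together, so reads of the antisense gene are few beside the 16585 counts of Rbm3.

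Cirbp encodes a protein that stabilizes selected mRNAs, among them that of the clock factor CLOCK, and lies on chromosome 10 from 80165985 to 80172786 on the plus strand. Levels were 24.9, 20.7 and 33.8 CPM in WT and 47.4, 50.8 and 36.5 CPM in CgA-KO livers. The groups did not overlap, but WT replicate 3 and CgA-KO replicate 3 came close to each other. Means were 26.5 ± 6.70 CPM (SD, n = 3) in WT and 44.9 ± 7.48 CPM (SD, n = 3) in CgA-KO livers. The log2 fold change was 0.76 (SE 0.23, 95% interval 0.25 to 1.27), or 1.696-fold, and missed the threshold with an edgeR adjusted p of 0.0589. With DESeq2, the tool named in the study's methods, which called 16.7% of 15465 genes, Cirbp was called (log2 fold change 0.74, adjusted p = 0.0316), as it was with a filter on a total of at least 1 count (adjusted p = 0.0458). Over all settings its adjusted p lay between 0.0316 and 0.157, so Rbm3 and Cirbp sit on the same side of 0 with like estimates and on opposite sides of the threshold by a narrow margin.

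**Figure D2:**
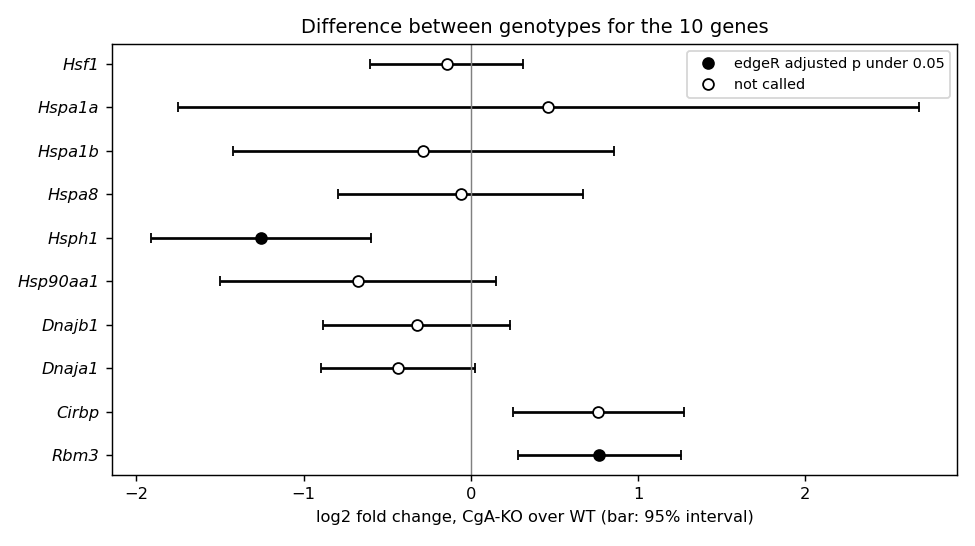
Log2 fold change of CgA-KO over WT (horizontal axis) for each of the 10 genes, with 95% intervals from edgeR's quasi-likelihood fit and filled points for an adjusted p under 0.05. Hsph1 lies below 0 and Cirbp and Rbm3 above it with intervals that exclude 0, while the interval of Hspa1a is the widest.

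**Figure D3:**
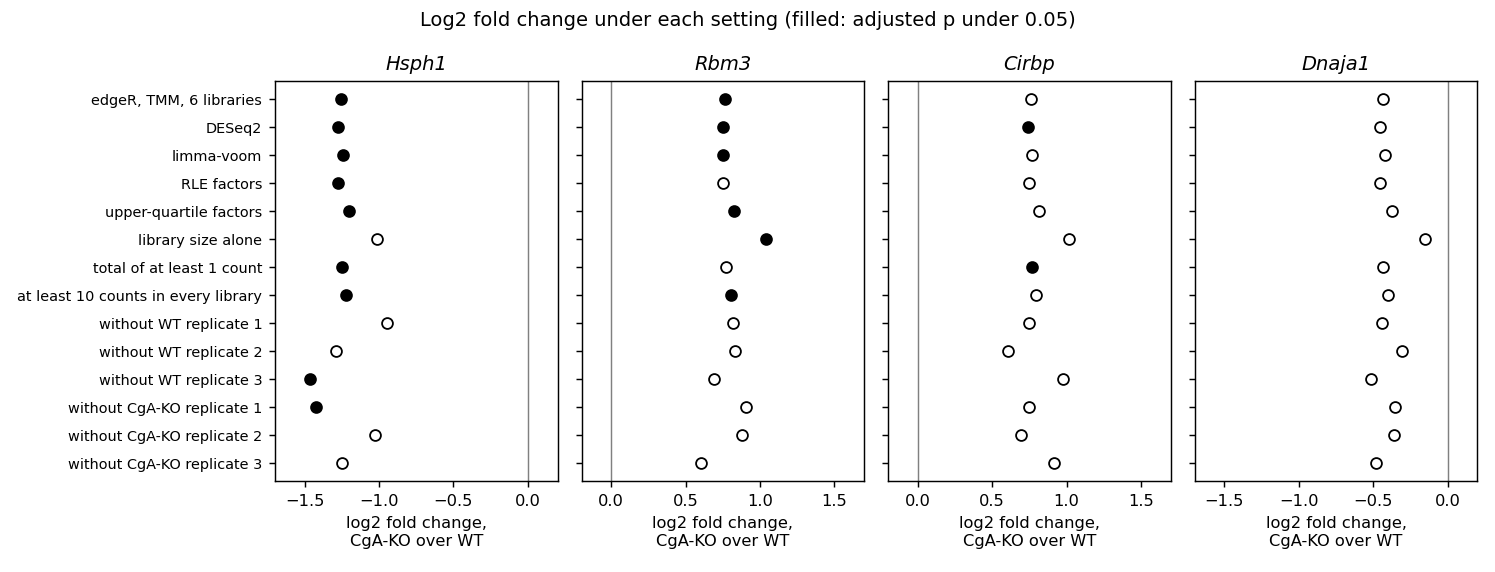
Log2 fold change of Hsph1, Rbm3, Cirbp and Dnaja1 (horizontal axes) in the fit to all 6 libraries and under 13 of the alternative settings (rows), filled where the adjusted p is under 0.05. Each gene stays on its side of 0 in every row, and the fills of Hsph1, Rbm3 and Cirbp change between rows.

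Ratios of partner genes within a library do not depend on how libraries are scaled. The log2 ratio of Hsph1 counts to those of Hspa4, which encodes the constitutive HSP110 relative APG-2, was -1.14, -1.86 and -2.22 in WT livers and -2.61, -3.48 and -2.88 in CgA-KO livers. The groups did not overlap, and the difference was -1.25 (exact permutation p = 0.1; 0.5 after Benjamini-Hochberg adjustment over 5 ratios). Hspa4 itself was at 84.9, 99.0 and 92.8 CPM in WT and 91.9, 95.8 and 90.0 CPM in CgA-KO livers (log2 fold change 0.0048, 95% interval -0.38 to 0.39, edgeR adjusted p = 0.989). This was the only ratio of the 5 without overlap between the genotypes. The inducible over the constitutive HSP70 genes, Hspa1a plus Hspa1b over Hspa8, differed by -0.09 (exact permutation p = 1). Hsp90aa1 over its constitutive partner Hsp90ab1 differed by -0.42 (exact permutation p = 0.5), with WT replicate 1 at -1.12 and the other 5 libraries between -2.67 and -2.005. For Dnajb1 over Dnaja1 the difference was 0.12 (exact permutation p = 0.5), and for Cirbp over Rbm3 it was 0.03 (exact permutation p = 1). All 5 tests are limited to p of at least 0.1 by the number of livers.

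**Figure D4:**
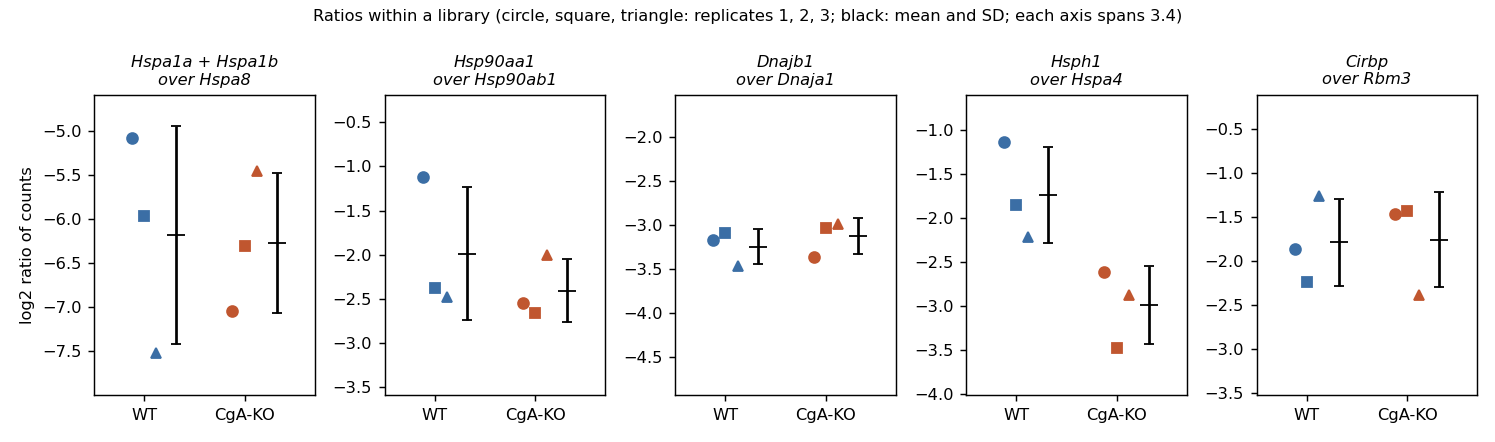
Log2 ratio of counts of 5 gene pairs within each library (vertical axes, each spanning the same length), with WT and CgA-KO livers side by side, replicates 1, 2 and 3 as circles, squares and triangles, and the mean with its SD in black. The groups separate for Hsph1 over Hspa4 alone, and WT replicate 1 stands above the rest for Hsp90aa1 over Hsp90ab1.

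The wider chaperone network was described by lists of related genes. As background for their counts, 29.1% of all genes tested had an unadjusted p under 0.05 in edgeR's test, 17.2% higher and 11.9% lower in CgA-KO livers. Of 7 cytosolic HSP70 and HSP110 relatives, none was called by edgeR or by DESeq2 and none had an unadjusted p under 0.05, and their median log2 fold change was 0.0048, which ran from -0.12 to 0.16 in fits without 1 library. Hspa2, an HSP70 best known from the testis, was estimated at 0.49 on that scale (edgeR adjusted p = 0.403). Of 13 genes of cytosolic HSP90 and its cochaperones, 2 were called lower and none higher, with a median of -0.29. At an unadjusted p under 0.05 there were 2 higher and 3 lower, and 1 gene was called higher without CgA-KO replicate 3. DESeq2 called 3 lower and none higher, adding Fkbp8 (log2 fold change -0.64, DESeq2 adjusted p = 0.0065), which was named after its values were seen. The edgeR adjusted p of Fkbp8 was 0.0722. The median was -0.18 without WT replicate 1. Fkbp4, which encodes the steroid receptor cochaperone FKBP52, was at 80.2, 83.4 and 80.7 CPM in WT and 43.2, 52.6 and 47.3 CPM in CgA-KO livers (log2 fold change -0.77, edgeR adjusted p = 0.0212). Ahsa2, a relative of the HSP90 ATPase activator AHA1, was at 32.2, 33.9 and 34.1 CPM in WT and 19.8, 22.01 and 20.3 CPM in CgA-KO livers (log2 fold change -0.69, edgeR adjusted p = 0.0218). Both fell with little spread between livers, and both calls were lost with library size alone and without WT replicate 3, CgA-KO replicate 1 or CgA-KO replicate 3, and that of Ahsa2 also without WT replicate 2. For Hsp90ab1 the log2 estimate was -0.14 (edgeR adjusted p = 0.723).

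None of 9 HSP70 cochaperones and none of 10 further J-domain proteins was called by edgeR, with medians of -0.25 and -0.25. At an unadjusted p under 0.05 there were 2 lower in the first list and 1 higher and 1 lower in the second, and DESeq2 called 1 lower in each. The cochaperone median was -0.13 without WT replicate 2, and the J-domain median was -0.15 in the fit that left out CgA-KO replicate 3. Bag3, the HSF1 target that links HSP70 to autophagy, was estimated at -0.15 on the log2 scale (edgeR adjusted p = 0.651). Dnaja2 had -0.23 and Dnajb4 -0.31 on the same log2 scale (edgeR adjusted p = 0.493 and 0.365). Of the 8 subunits of the chaperonin TRiC none was called by edgeR or DESeq2, 1 was lower at an unadjusted p under 0.05, and the median was -0.21 (-0.10 without CgA-KO replicate 1). Of 7 small heat shock protein genes, 4 passed the filter and none was called by edgeR or DESeq2, with 2 lower at an unadjusted p under 0.05. Their median of -0.46 was -0.28 without WT replicate 1 and -0.70 without CgA-KO replicate 2. Hspb1 had the lowest estimate of these, -1.85 (edgeR adjusted p = 0.0995), which was -0.57 without WT replicate 1.

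Among HSF1 regulators and other heat shock factors, 6 of 7 genes were tested and 1 was called lower, with 2 lower at an unadjusted p under 0.05, 2 called lower by DESeq2 and a median of -0.35 (-0.17 without WT replicate 2). This was Hsf2, a second heat shock factor that forms complexes with HSF1, at 55.4, 36.6 and 44.2 CPM in WT and 25.0, 24.7 and 22.6 CPM in CgA-KO livers. It fell by 0.91 on the log2 scale (edgeR adjusted p = 0.0185), beside -0.15 for Hsf1, and the difference between these genes was not tested. The call was kept in 9 of 14 alternative settings, and was lost with library size alone and without WT replicate 3 or any 1 of the CgA-KO replicates.

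**Figure D5:**
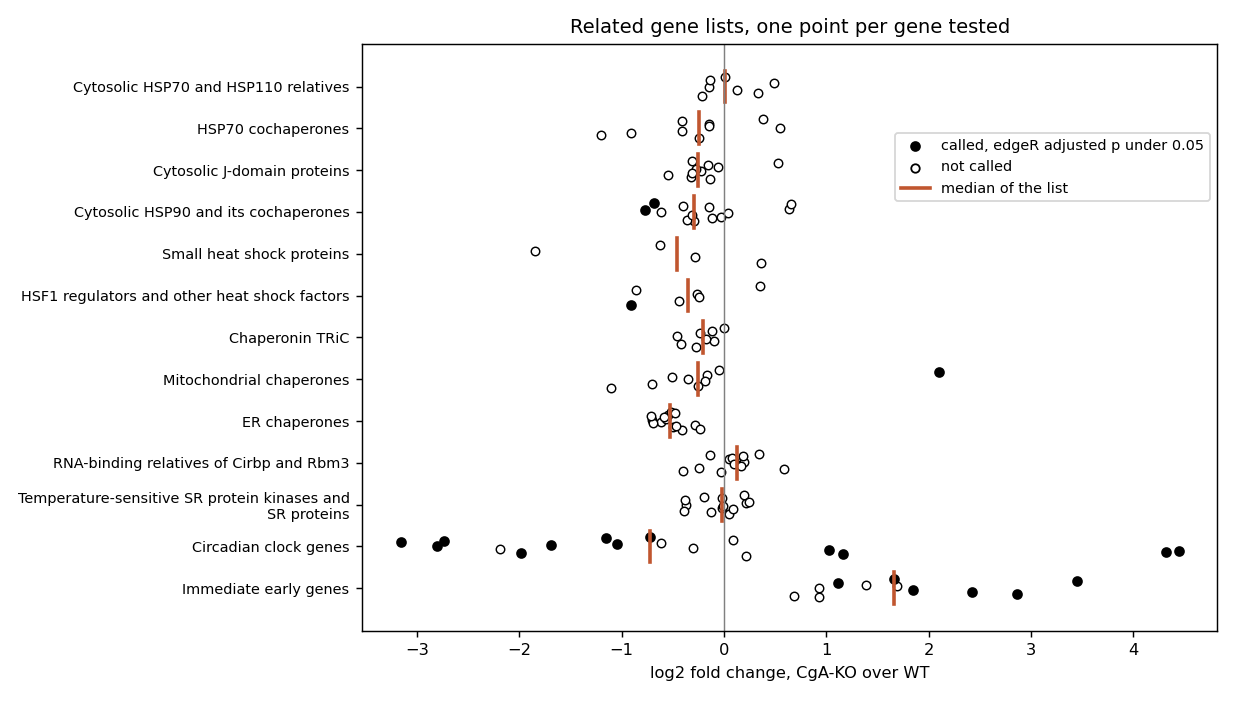
Log2 fold change of CgA-KO over WT (horizontal axis) for the tested genes of 13 related lists (rows), 1 point per gene, filled where the edgeR adjusted p is under 0.05, with the list median as a vertical bar. The medians of the cytosolic chaperone lists lie between -0.46 and 0.0048, all 14 ER chaperones lie below 0, and the clock and immediate early lists hold most of the called genes.

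In other compartments, the mitochondrial list had 1 of 9 genes called higher. Clpx, the unfoldase of the matrix protease ClpXP, rose from 50.7, 55.1 and 46.1 CPM in WT to 247, 191 and 213 CPM in CgA-KO livers (log2 fold change 2.10, edgeR adjusted p = 0.00247), while the other 8 genes had estimates below 0 and the list's median was -0.26 (-0.13 without WT replicate 2 and -0.41 without CgA-KO replicate 2). At an unadjusted p under 0.05, 3 of these 8 were lower, and DESeq2 called 2 of them lower, Hspd1 and Hspe1, which encode the matrix chaperonin HSP60 and its cochaperonin HSP10 and were named after their values were seen. Of 14 ER chaperone genes, the targets of the unfolded protein response in the secretory pathway, all 14 had estimates below 0, from -0.72 to -0.24, with a median of -0.53. Their summed level was 2506 to 2742 CPM in WT and 1692 to 1913 CPM in CgA-KO livers. No overlap between the genotypes was seen for 11 of the 14, beside the 33.6% of all genes, yet edgeR called none of them at an adjusted p under 0.05. At an unadjusted p under 0.05 there were 9, and DESeq2 called 5. With library size alone the list's median was -0.28, with 12 of 14 estimates below 0.

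On the side of the RNA-binding proteins, none of 14 relatives of Cirbp and Rbm3 was called, with a median of 0.13 that was -0.00062 without WT replicate 2 and 0.25 without CgA-KO replicate 3. The temperature-sensitive CLK kinases, which phosphorylate SR splicing proteins more strongly in the cold, were listed with those proteins, and none of the 13 genes was called, with a median of -0.02. That median was -0.29 without WT replicate 2, with 11 of 13 estimates below 0, and 0.17 without WT replicate 1, with 9 above 0. At an unadjusted p under 0.05, 1 relative was higher and 0 of the SR list passed. By DESeq2 none of either list was called.

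Clock genes, which have a daily rhythm as Cirbp and Rbm3 do, held more calls than any chaperone list. Of 17 tested, 4 were called higher and 8 lower by edgeR, and the lower calls fell to 4 without WT replicate 3 or CgA-KO replicate 1 and to 5 without WT replicate 2. The higher calls were 2 without WT replicate 2 or CgA-KO replicate 1. Arntl, which encodes the clock activator BMAL1, was at 1.25, 0.553 and 0.635 CPM in WT and at 19.5, 15.0 and 15.7 CPM in CgA-KO livers (log2 fold change 4.44, edgeR adjusted p = 0.00164). Npas2, a partner of BMAL1, had a log2 fold change of 4.32 and Per3, a period gene, one of -3.16 (edgeR adjusted p = 0.00296 and 0.00247). Arntl and Npas2 were thus high where Per3 was low, and the hour of collection is not given in the labels. Of 11 tested immediate early genes, which respond within minutes to growth factors, stress and handling, 6 were called higher and none lower, with a median of 1.66, and 3 were called without WT replicate 3. Egr1, a zinc finger factor, had a log2 fold change of 2.86, Btg2, an antiproliferative gene, 2.42 and Klf6, a Krüppel-like factor, 1.66 (edgeR adjusted p = 0.00164, 0.00355 and 0.00778). The part of the clock, of collection hour and of handling in the levels of the heat shock and cold-inducible genes was not tested.

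The genes with levels most like those of Hsph1 and Cirbp were sought among 9936 genes with a mean of at least 5 CPM, by Pearson's r of log2 CPM over the 6 libraries, which share depth and genotype across all genes. For Hsph1 they were Miga2 (r = 0.996), Aldh3a2 (0.988), Stam (0.982), Pstpip2 (0.974) and Pcnx4 (0.973). For Cirbp they were E2f4 (r = 0.993), Ncoa6 (0.987), Nrde2 (0.986), Sp1 (0.984) and Tpr (0.984). With 6 libraries in which many genes differ between genotypes, such values describe likeness alone, and no heat shock gene of the lists was among the 5 nearest to Hsph1.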

How the data were processed

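The values used are counts that the authors deposited, 1 table of 32212 gene rows by 6 libraries, whole numbers that are not normalized. Per the study's methods, reads were quantified with Salmon 1.4.0 against the GRCm38 mouse transcriptome. The step from transcripts to genes and the use of strand are not given in the sources used here. Each of the 6 columns was mapped to a sample by its name, with 0 left over. Replicates of a genotype were kept as separate livers, since chi-square divided by its degrees of freedom was 31.9 to 202 over their 6 pairs.

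The main test was that of edgeR 4.0.16 (R 4.3.3), with filterByExpr at a minimum count of 10, TMM factors, robust quasi-likelihood fits on genotype, a two-sided test and Benjamini-Hochberg adjustment over all genes tested. An approximate SE was taken as the estimate over the root of its F value. Symbols that occur on several rows (78 rows repeat one) were kept as separate rows, and the first was used for Hspa14. Ratios of counts, with 1 added, were compared by exact two-sided permutation tests. DESeq2 1.42.0, limma-voom (limma 3.58.1), other factors and filters, a replicate block, the sum of Hspa1a and Hspa1b, and fits without 1 library each were alternatives. On simulated data, only the main edgeR test, limma-voom and DESeq2 were tested. Deviations of same-numbered livers of the genotypes had correlations of 0.199, 0.0127 and -0.07. The own number was the best match for replicate 1 alone, so numbers were not treated as pairs. All 10 members are named. Of each related list, the called genes with the 3 smallest p were named, and fixed partners of the members. The members and lists were chosen with earlier results of these data known. Coordinates are from GENCODE vM21, sequences from RefSeq. Figures were drawn with matplotlib.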

Additional observations from a re-analysis of the deposited data

How the results depend on the processing

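The count of members called higher was 1 in the fit reported and 2 with DESeq2, 0 with RLE factors, 0 with the replicate block and 0 in each fit that left out 1 library. The count called lower was 1, and it was 0 with library size alone and 0 to 1 without 1 library. With the replicate block, Rbm3 had a log2 fold change of 0.75 (adjusted p = 0.0901) and Hspa8 one of 0.029, and Hsph1 was called. Only 1 of 3 numbers was matched best by its own number. Some uncalled log2 fold changes crossed 0. With library size alone the median over all genes was 0.26, beside -0.01 in the fit reported. In that setting the values that crossed 0 were 0.10 for Hsf1, 0.026 for Hspa1b, 0.28 for Hspa8, 0.10 for Hspa1a plus Hspa1b, 0.14 for Hsp90ab1, 0.15 for Bag3 and 0.061 for Dnaja2. For Hspa8 the value was 0.0095 with upper-quartile factors and 0.061 with limma-voom, and for Hspa1a plus Hspa1b it was 0.019 with limma-voom. Hspa4 had -0.018 with DESeq2 and -0.014 with RLE factors. Leaving out 1 library gave -1.01 to 1.21 for Hspa1a, -0.71 to 0.21 for Hspa1b, -0.64 to 0.25 for their sum, -0.27 to 0.32 for Hspa8, -0.015 to 0.057 for Hspa4 and -0.25 to 0.010 for Bag3. The same fits gave differences in log2 ratio of -0.75 to 0.47 for Hspa1a plus Hspa1b over Hspa8, -0.66 to 0.018 for Hsp90aa1 over Hsp90ab1, -0.20 to 0.34 for Cirbp over Rbm3, 0.01 to 0.24 for Dnajb1 over Dnaja1 and -1.49 to -0.95 for Hsph1 over Hspa4. The cause of these changes was not tested. Over all genes, 394 to 2126 were called without 1 library (394 without WT replicate 3, 744 without CgA-KO replicate 1, 841 without WT replicate 2, 976 without CgA-KO replicate 2), beside 1726 with all 6. The estimates of Hsph1, Rbm3, Cirbp, Dnaja1, Dnajb1 and Hsp90aa1 kept their sign in all 15 alternatives. Low counts limit the estimate of Hspa1a, which had from 4 to 91 counts per library.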
